A study of Mus musculus with 2 samples.

Results

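The nuclear genome encodes most subunits of the oxidative phosphorylation system, and 84 such genes were followed in 2 RNA sequencing libraries of megakaryocyte-erythroid progenitors (MEP), the marrow progenitors of red cells and of platelet-producing megakaryocytes. Members were the protein-coding genes whose symbol begins with Ndufa, Ndufb, Ndufc, Ndufs or Ndufv and a number, is Sdha to Sdhd, or begins with Uqcr, with Cox and a number of 4 to 8, or with Atp5. They were 84 of 69691 features in the gene tables and 84 of 21461 protein-coding nuclear genes. By complex, 35 belonged to complex I, 4 to complex II, 8 to complex III, 20 to complex IV and 17 to complex V, the ATP synthase. Ndufa4 and its paralog Ndufa4l2 were placed with complex IV, where the NDUFA4 protein is now known to sit, and Cox7a2l, a factor that joins complexes III and IV into supercomplexes, was kept there too. Both libraries came from primary cells of C57BL/6J male adult mice aged 5 to 6 weeks, with no treatment or mutation named in the labels and 100 cells to a library, and they are labelled biological replicates 2 and 1 of 1 group. They have separate biosample records and the same donor record, so nothing shows that they came from different animals, and the spread between them may be technical. With 1 group and no second condition there is no comparison to test. Every difference below is between the libraries, replicate 2 minus replicate 1, with no p-value.

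Oxidative phosphorylation passes electrons from NADH through complex I, or from succinate through complex II, to ubiquinone, then through complex III and cytochrome c to complex IV, which reduces oxygen. Proton pumping by complexes I, III and IV drives the rotor of complex V, which makes ATP. Complexes I, III, IV and V also hold subunits from the mitochondrial genome, while complex II is wholly nuclear-encoded. In the red cell line mitochondria also carry the first and last steps of heme synthesis, and they are cleared as the reticulocyte matures. Several subunits of complex IV exist as a general isoform and as an isoform restricted to heart and skeletal muscle, lung or testis.

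Depth was 51510347 expected counts in replicate 2, against 30016974 in replicate 1. The members took 324605 of them in replicate 2 and 160261 in replicate 1. An expected count is a read count estimated where reads fit several genes, and TPM is a level corrected for transcript length and scaled to a fixed sum over all features of a library. All 8 MEP and erythroid markers reached at least 10 TPM in both libraries, among them Car1, Gata1 and Klf1. Markers of other cells differed between libraries. The 13 neutrophil and monocyte markers summed to 8.02 TPM in replicate 2, where 8 of 13 were at 0, and to 1932 TPM in replicate 1, where none was at 0. The 10 B cell markers summed to 162 TPM in replicate 2, with none at 0, and to 10.8 TPM in replicate 1, with Vpreb1 at 0. The 7 megakaryocyte markers summed to 29.7 TPM in replicate 2, where Ppbp was at 0, and to 20.6 TPM in replicate 1, where Ppbp and Pf4 were at 0, and the 8 T and NK cell markers summed to 38.5 and 52.8 TPM in the same order, with Cd8a at 0 in both. The 6 stem and myeloid progenitor surface genes summed to 7.92 TPM in replicate 2, against 7.19 TPM in replicate 1. The part of these cells in the member values was not tested, and in bulk RNA fewer cells of a type and less RNA per cell cannot be told apart.

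Promoter sequence is shown for 3 complex IV isoform pairs, because the general and the restricted gene of most pairs stood far apart in level while those of Cox6b1 and Cox6b2 did not, and for Cox6a1, as a general isoform with several motif matches. RefSeq windows on GRCm38.p6, the assembly also called mm10, run from 250 bases before to 50 bases after a gene's start, and 68 of the 84 members matched 73 windows. Members without one included Atp5a1, Atp5mpl, Cox4i1, Cox4i2, Cox6a2, Cox6c, Cox8c, Ndufa2, Ndufa4l2, Ndufb9, Ndufs1, Sdhc, Uqcrb, Uqcrc2 and Uqcrq. Capitals mark matches, on either strand, to the letters GCGCA, any base (N) and GCGC of the NRF1 motif, CCGGAAG of the ETS motif bound by GABP, AAGATGGCG of the YY1 motif and GGGCGG of the SP1 motif. The first 2 sequences are those of Cox6b2, the testis isoform of subunit VIb (chr7:4753045-4753344 on the minus strand), and of its general counterpart Cox6b1 (chr7:30626065-30626364 on the minus strand).
Cox6b2: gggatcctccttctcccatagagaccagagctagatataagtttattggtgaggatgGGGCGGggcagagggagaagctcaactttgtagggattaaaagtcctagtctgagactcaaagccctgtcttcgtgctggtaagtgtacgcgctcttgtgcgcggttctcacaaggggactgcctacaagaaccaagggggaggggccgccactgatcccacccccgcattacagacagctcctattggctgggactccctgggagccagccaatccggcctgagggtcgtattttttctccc
Cox6b1: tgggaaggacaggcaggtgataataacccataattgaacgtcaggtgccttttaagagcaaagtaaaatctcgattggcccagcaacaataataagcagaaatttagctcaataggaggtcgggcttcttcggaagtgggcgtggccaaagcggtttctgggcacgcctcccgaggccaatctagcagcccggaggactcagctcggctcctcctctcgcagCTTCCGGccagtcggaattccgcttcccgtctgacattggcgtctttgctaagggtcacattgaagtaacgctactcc
The Cox6b2 window held 10 CpG dinucleotides and 1 SP1 match, 193 bases before the start, while the Cox6b1 window held 17 CpG and 1 ETS match, on the strand opposite to the gene 28 bases before the start. The next pair is Cox7a1, the isoform of heart and skeletal muscle (chr7:30183921-30184220 on the plus strand), and Cox7a2, the general isoform (chr9:79759804-79760103 on the minus strand).
Cox7a1: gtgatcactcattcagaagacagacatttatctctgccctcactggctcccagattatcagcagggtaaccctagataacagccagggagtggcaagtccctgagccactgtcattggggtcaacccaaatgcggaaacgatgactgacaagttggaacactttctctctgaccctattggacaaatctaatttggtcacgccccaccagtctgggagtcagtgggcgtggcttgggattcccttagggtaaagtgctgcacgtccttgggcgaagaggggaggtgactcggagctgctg
Cox7a2: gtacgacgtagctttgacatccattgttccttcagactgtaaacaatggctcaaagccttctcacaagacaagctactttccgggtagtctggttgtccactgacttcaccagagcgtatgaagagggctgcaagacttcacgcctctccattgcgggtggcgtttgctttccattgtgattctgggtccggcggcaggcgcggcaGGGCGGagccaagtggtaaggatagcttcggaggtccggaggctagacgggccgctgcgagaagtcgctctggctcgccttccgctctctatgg
Here the restricted gene had 7 CpG and no match, and the general gene had 20 CpG and 1 SP1 match, 44 bases before the start. The third pair is Cox8b, another isoform of heart and skeletal muscle (chr7:140900397-140900696 on the minus strand), and Cox8a, the general isoform (chr19:7217567-7217866 on the minus strand).
Cox8b: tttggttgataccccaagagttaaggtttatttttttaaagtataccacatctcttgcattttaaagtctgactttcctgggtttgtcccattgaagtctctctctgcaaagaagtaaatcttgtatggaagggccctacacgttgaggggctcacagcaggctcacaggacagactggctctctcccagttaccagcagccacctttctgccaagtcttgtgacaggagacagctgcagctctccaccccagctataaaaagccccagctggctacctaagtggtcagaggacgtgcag
Cox8a: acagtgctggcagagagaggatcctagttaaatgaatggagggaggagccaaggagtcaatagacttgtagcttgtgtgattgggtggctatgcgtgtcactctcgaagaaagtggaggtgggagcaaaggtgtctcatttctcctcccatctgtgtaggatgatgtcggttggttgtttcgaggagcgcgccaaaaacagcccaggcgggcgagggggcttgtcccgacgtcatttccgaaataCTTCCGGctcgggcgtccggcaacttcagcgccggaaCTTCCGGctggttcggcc
Cox8b had 2 CpG and no match, and Cox8a had 19 CpG and 2 ETS matches, 1 of them 5 bases before the start and 1 after it. Cox6a1, the general isoform of subunit VIa (chr5:115348909-115349208 on the minus strand), had 32 CpG with 2 NRF1, 2 SP1 and 1 ETS match.
Cox6a1: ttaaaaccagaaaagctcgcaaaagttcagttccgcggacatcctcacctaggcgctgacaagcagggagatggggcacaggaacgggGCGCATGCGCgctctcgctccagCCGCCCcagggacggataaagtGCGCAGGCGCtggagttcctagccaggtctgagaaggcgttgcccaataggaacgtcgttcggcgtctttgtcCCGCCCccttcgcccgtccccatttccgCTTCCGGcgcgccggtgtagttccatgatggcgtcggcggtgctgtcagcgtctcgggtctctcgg
In the 3 pairs shown the general gene had more CpG than the restricted gene, but in the fourth pair with both windows, Cox7b and Cox7b2, the general gene had 5 CpG and no match and the restricted gene 10 CpG and 1 SP1 match. Over the 68 matched members, 17 (25%) held the NRF1 letters, against 5.19% of all 27025 genes with a window and 15.4% of protein-coding genes at 10 TPM or more in both libraries. ETS letters were found for 16 members (23.5%), against 9.93% of all genes and 26.6% of expressed genes. YY1 letters were found for 7 members (10.3%), against 1.64% and 5.05%. SP1 letters were found for 28 members (41.2%), against 38.2% and 71.6%. Exact 95% intervals on the members' shares were 15.3 to 37.0% for NRF1, 14.1 to 35.4% for ETS, 4.24 to 20.1% for YY1 and 29.4 to 53.8% for SP1. Those for NRF1, ETS and YY1 hold the share of expressed genes, and that for SP1 lies under it, as a description of these windows with no test. A gene counted if any of its windows matched, and the 4317 expressed genes had 5517 windows, more per gene than members. Per window, NRF1 letters were in 24.7% for members, against 13.1% for expressed genes, and YY1 letters in 9.59%, against 4.10%. For ETS it was 21.9% against 22.6%, and for SP1 39.7% against 65.1%. The intervals above are per gene and none was computed per window, so the per-window shares cannot be placed against them. The median window of members had 19 CpG, against 7 over all genes and 23 over expressed genes. Of member windows, 1 had an ETS and an SP1 match that overlapped, and no other overlap of motifs was found. A match is a run of letters and says nothing on whether a factor is bound there.

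MEP expressed the oxidative phosphorylation set at high level. Of the 84 members, 76 were at or over 10 TPM in both libraries, where 24.7% of protein-coding nuclear genes did, and 46 reached at least 100 TPM, where 2.2% of those genes did. The median over all 84 members was 134 TPM in replicate 2, against 113 TPM in replicate 1. Members took 3.36% of the TPM of protein-coding nuclear genes in replicate 2, against 3.15% in replicate 1. Their share was smaller in expected counts, which are not corrected for length. There they held 324605 of the 25799923 counts of those genes in replicate 2, and 160261 of 13518448 in replicate 1. By complex, the median was highest for complex V, with 257 TPM in replicate 2, against 219.6 TPM in replicate 1. Complex IV followed with 190.3 and 176 TPM in replicates 2 and 1, and complex III with 180.4 and 127 TPM. Complex I stood at 96.97 and 81.3 TPM and complex II at 83.5 and 75.3 TPM. The order was the same in both libraries, but the ranges of complexes IV and III overlapped, as did those of complexes I and II. The place of complex IV depended on 7 low isoform genes: over the 13 with a mean of at least 10 TPM, the median was 344 TPM in replicate 2, against 295 TPM in replicate 1, above that of complex V.

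**Figure D1:**
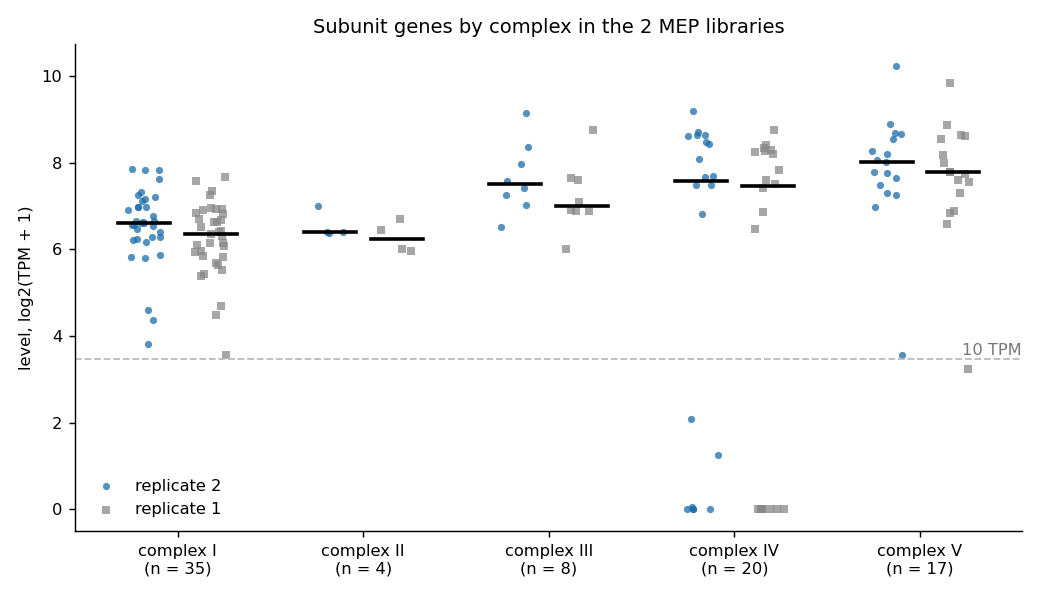
Level of each member as log2(TPM + 1), by complex, in replicate 2 (circles) and replicate 1 (squares), with the median of each library as a black bar. Complex V had the highest median, and 7 members of complex IV lay under 10 TPM in both libraries.

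Members share a build that the symbols did not select for. For each gene, the median length and the largest exon number of its protein-coding transcripts were taken. The medians over all 84 members were 655 bases and 4 exons. They were 1821 bases and 10 exons over protein-coding nuclear genes at 10 TPM in both libraries, and 1961 bases and 7 exons over all 21461. Within the 76 members at a mean of 10 TPM, the level was lower at greater effective length, the length left after allowing for fragment size, with a Spearman correlation of -0.52 across genes. Over 5759 protein-coding nuclear genes at that level it was -0.34. With the mean count in place of TPM the sign turned, to 0.27 for the members and 0.43 for those genes. All genes of a library share its depth and its fragment sizes, and length enters the TPM itself, so this is a description of the scale as much as of the genes.

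Complex I, the NADH dehydrogenase, had all 35 members at or over 10 TPM in both, and 11 of them at 100 TPM or more. The 3 highest by mean were accessory subunits of the membrane arm. Ndufb8 had 229 TPM in replicate 2, against 203 TPM in replicate 1, Ndufa3 had 227 and 189 TPM, and Ndufb9 had 229 and 163 TPM. The 3 lowest were Ndufa11, Ndufb4 and Ndufs4. Ndufa11, a membrane arm subunit, had 13.2 TPM in replicate 2, against 10.7 TPM in replicate 1, on 1268 and 596 expected counts spread over an effective length of about 2495 and 2525 bases. Ndufs4, an accessory subunit whose loss in mice causes a Leigh-like brain disease, had 23.2 TPM in replicate 2, against 21.5 TPM in replicate 1. Ndufb4, the B15 subunit, had 19.8 TPM in replicate 2, against 24.8 TPM in replicate 1, a level that a near-identical copy changes, as given with the copies. Among the 7 conserved core subunits, some of which are named here for their role, Ndufv1, which binds NADH, had 98.4 TPM in replicate 2, against 98.0 TPM in replicate 1, and Ndufs1, the largest iron-sulfur subunit, had 70.6 and 60.5 TPM. Eef1b2 overlaps Ndufs1 on the opposite strand with 22540 counts in replicate 2 and 11995 in replicate 1. Whether counting used strand is not stated, so the level of Ndufs1 is less sure than its counts allow. The same limit holds for other members. Ndufb2, Ndufb11 and Cox6c also overlap an opposite-strand gene with more counts than their own in both libraries (Braf, Rbm10 and Vps13b). The core subunits had a median of 98.4 TPM in replicate 2, against 81.3 TPM in replicate 1, and the 28 accessory subunits 96.7 and 80.5 TPM, a gap between the classes far under that between the libraries.

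Complex II, succinate dehydrogenase, had the narrowest range of the complexes, but it was also the smallest, with 4 genes. A ratio of highest to lowest member can only widen as genes are added. That ratio was 1.56 in replicate 2, against 1.68 in replicate 1. For all 35 genes of complex I it was 17.4 and 18.9, and for its 7 core subunits alone 2.08 and 1.98, in the same order. For the 5 subunits of the F1 head of complex V it was 7.85 and 7.84, with Atp5b as the highest. Most Atp5b TPM lay in transcripts annotated as noncoding. In coding transcripts alone, the F1 genes ran from 153 to 371 TPM in replicate 2 and from 117 to 397 TPM in replicate 1. Those of complex II then ran from 54.6 to 128 TPM and from 50.1 to 104 TPM, in the same order. Whether complex II was more even than its size alone would give was not tested. Sdhd, a membrane anchor, had 128 TPM in replicate 2, against 104 TPM in replicate 1. Sdha, the flavoprotein that oxidises succinate, had 81.7 TPM in replicate 2, against 86.9 TPM in replicate 1. Sdhb, the iron-sulfur subunit, had 83.4 and 63.7 TPM in replicates 2 and 1, and Sdhc, the other anchor, 83.5 and 61.6 TPM. In replicate 2 the 3 genes other than Sdhd lay within 2 TPM of each other.

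Complex III, the cytochrome bc1 complex, had 7 of 8 members at or over 100 TPM in both. Its highest member was Uqcrh, the hinge protein thought to aid the binding of cytochrome c to cytochrome c1, with 566 TPM in replicate 2, against 430 TPM in replicate 1. The small subunit Uqcr11 had 330.4 TPM in replicate 2, against 201 TPM in replicate 1, and Uqcr10 had 252 and 192 TPM. The lowest was Uqcrfs1, the Rieske iron-sulfur protein, with 91.3 TPM in replicate 2, against 63.6 TPM in replicate 1. Uqcrq, a small subunit, had 153 and 120 TPM in replicates 2 and 1, and the core protein Uqcrc2 had 129 and 135 TPM. Over all transcripts, Uqcrc2 was the only member of this complex that was not higher in replicate 2. In protein-coding transcripts alone Uqcrc2 was higher there, at 65.8 TPM against 54.1 TPM, while Uqcrh was lower, at 279 TPM against 297 TPM.

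Complex IV, cytochrome c oxidase, split into 2 parts with nothing between 3.24 and 87.1 TPM. The 13 members above that gap were led by Cox4i1, with 583 TPM in replicate 2, against 434 TPM in replicate 1. Cox7c followed with 417 and 305 TPM and Cox8a with 392 and 326 TPM. Lowest of these 13 was Cox7a2l, with 111 TPM in replicate 2, against 87.1 TPM in replicate 1. Below the gap stood 7 genes, all of them the tissue-restricted member of a pair. Cox4i2, the lung isoform, Cox7b2 and Cox8c, isoforms of testis, and Cox8b had no count in either library. Floors of 3 counts per library, which cover counting error only, put these 4 genes under 0.138 to 0.393 TPM in replicate 2 and under 0.23 to 0.603 TPM in replicate 1. Ndufa4l2, an isoform known for its induction by hypoxia, had 1 count in replicate 2, against 0 in replicate 1.

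For all but 1 of the 8 isoform pairs, the general isoform was above the restricted isoform by 50 times or more. Intervals below are exact Clopper-Pearson intervals at 95% on rounded counts and cover counting error only. Cox4i1 exceeded Cox4i2 by at least 4234 times in replicate 2 and at least 1889 times in replicate 1. Cox8a exceeded Cox8b by at least 999 and 540 times in replicates 2 and 1, and exceeded Cox8c by at least 1566 and 811 times. Cox7b exceeded Cox7b2 by at least 976 and 509.5 times in the same order. For the pair of Cox6a1 and Cox6a2, the second an isoform of heart and skeletal muscle, the ratio was 292 (199 to 447) in replicate 2, on 6243 and 26 counts, and at least 1180.4 in replicate 1. Cox7a2 exceeded Cox7a1 by 55.3 times (37.4 to 85.5) in replicate 2, on 4065 and 25 counts, and by at least 322 times in replicate 1. Ndufa4 exceeded Ndufa4l2 by 8292 times in replicate 2, where the single count of Ndufa4l2 leaves an interval of 1487 to 327609, and by at least 1361 times in replicate 1. Shmt2 overlaps Ndufa4l2 on the opposite strand and had 5349 counts in replicate 2, against 2277 in replicate 1, so the near absence of counts for Ndufa4l2 stood beside many on the other strand.

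The exception was the pair of Cox6b1 and Cox6b2. Cox6b2 (ENSMUSG00000051811, mm10 chromosome 7, 4751792 to 4753094, minus strand) is the isoform described in testis, and it had 2245 counts and 178 TPM in replicate 2, and 973 counts and 116 TPM in replicate 1. Cox6b1 had 5222 counts and 399 TPM in replicate 2, and 2389 counts and 295 TPM in replicate 1. The ratio of Cox6b1 to Cox6b2 was 2.24 (2.14 to 2.36) in replicate 2 and 2.55 (2.36 to 2.75) in replicate 1, and Cox6b2 made up 30.8% of the pair in replicate 2, against 28.2% in replicate 1. Cox6b2 thus stood far over the floor in both libraries, the sole restricted isoform to do so. No gene of the annotation overlaps Cox6b2, and blastn, set to keep close matches alone, found no alignment between Cox6b1 and Cox6b2 transcripts. That search says nothing on weaker similarity between them. Cox6b2 belongs to the 8 members whose leading transcript differed between libraries, described with the transcripts.

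**Figure D2:**
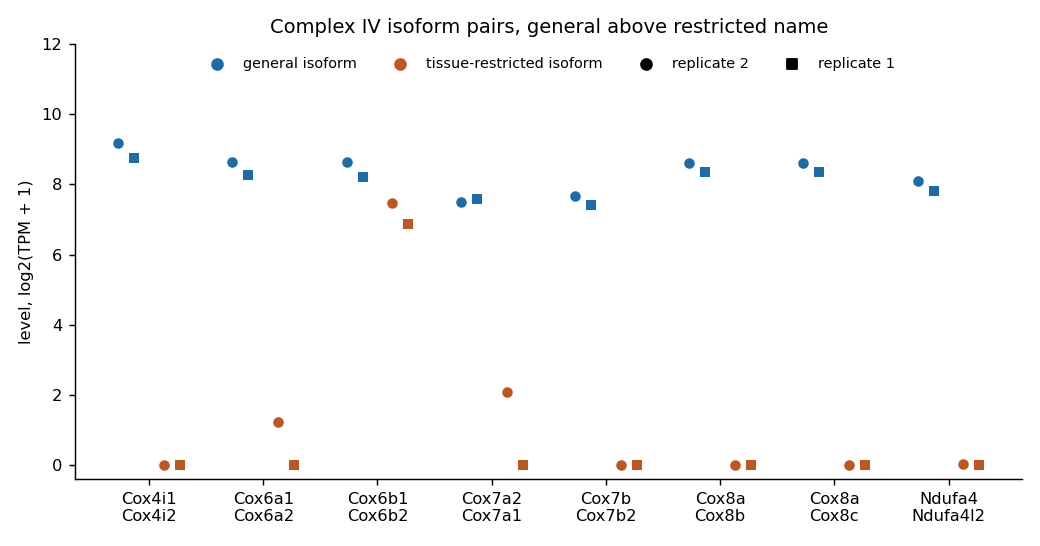
Level of the general isoform (blue) and of the tissue-restricted isoform (orange) of each complex IV pair as log2(TPM + 1), in replicate 2 (circles) and replicate 1 (squares). Among the restricted isoforms, Cox6b2 was the sole gene above 10 TPM, with 178 TPM in replicate 2, against 116 TPM in replicate 1.

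Complex V held the highest member of all. Atp5b, the catalytic beta subunit of the F1 head (ENSMUSG00000025393, mm10 chromosome 10, 128083273 to 128090391, plus strand), had 1201 TPM in replicate 2, against 916 TPM in replicate 1. Atp5a1, the alpha subunit, had 294 TPM in replicate 2, against 290.5 TPM in replicate 1. The F1 head holds alpha and beta in equal number, but the TPM of Atp5b exceeded that of Atp5a1 by 4.09 times in replicate 2, against 3.15 times in replicate 1. In counts not corrected for length the ratio was 1.38 in replicate 2, against 1.24 in replicate 1, and in the TPM of protein-coding transcripts alone it was 1.12 in both. Most Atp5b TPM lay in short transcripts annotated as noncoding, which shortened the effective length of the gene to 639 bases in replicate 2 and 747 bases in replicate 1, against about 1890 and 1899 bases for Atp5a1. Of the other F1 subunits, Atp5e had 374 and 400.4 TPM in replicates 2 and 1, Atp5c1 217 and 186 TPM, and Atp5d 153 and 117 TPM. At the low end, Atp5s, coupling factor B, had 10.9 TPM in replicate 2, against 8.47 TPM in replicate 1, the only member of complex V under 10 TPM in a library. Atp5l, subunit g, had 126 TPM in replicate 2, against 113 TPM in replicate 1.

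Subunit c, whose ring turns as protons pass, is encoded by 3 genes that give the same mature protein. Atp5g1 had 413 TPM in replicate 2, against 468 TPM in replicate 1. Atp5g3 had 476 and 389 TPM, and Atp5g2 had 157 and 94.7 TPM, in the same order. Atp5g3 was thus ahead of Atp5g1 in replicate 2 and behind it in replicate 1, and Atp5g2 was lowest in both. As shares of the summed TPM, Atp5g1 took 39.5% in replicate 2, against 49.2% in replicate 1, Atp5g2 14.98% and 9.95%, and Atp5g3 45.5% and 40.9%.

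The place of Atp5g2 depended on how reads were divided with a near-identical copy. Gm10175, a transcribed processed pseudogene (mm10 chromosome 7, 23946646 to 23947290), is identical to Atp5g2 transcript over 645 bases, and the authors' quantification gave it 5148 counts and 315 TPM in replicate 2, and 3356 counts and 337 TPM in replicate 1. Adding copies to their member gene put Atp5g2 at 472 TPM in replicate 2, against 432 TPM in replicate 1, level with Atp5g1 and Atp5g3, and the mean shares became 34.2% for Atp5g1, 33.7% for Atp5g2 and 32.2% for Atp5g3. A second case was Atp5l. Gm10221 (chromosome 5, 24581554 to 24581862), identical over 309 bases, had 3179 counts and 320.4 TPM in replicate 2, and 1743 counts and 277 TPM in replicate 1, and with its copies Atp5l had 446 and 391 TPM. The third was Ndufb4. Ndufb4c (chromosome 15, 73809507 to 73809896), identical over 390 bases, had 661 counts and 76.0 TPM in replicate 2, and 315 counts and 56.4 TPM in replicate 1, and with its copies Ndufb4 had 95.8 TPM in replicate 2, against 81.1 TPM in replicate 1. Which gene such reads came from cannot be told from these tables, so the levels of Atp5g2, Atp5l and Ndufb4 are uncertain between the value as deposited and the value with copies. In all, 21 members had 38 copies at 95% identity or more, 13 of which were over 3 counts in both libraries. With both libraries summed, copies held over 5% of the combined counts for just those 3 members. In replicate 1 alone, copies also held 9.37% for Ndufs5 and 6.94% for Ndufa12, against 0.20% and 2.61% in replicate 2. Copies of Cox6c and Cox7c had 67.95 and 57.8 TPM in replicate 1, against 27.6 and 21.4 TPM in replicate 2.

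**Figure D3:**
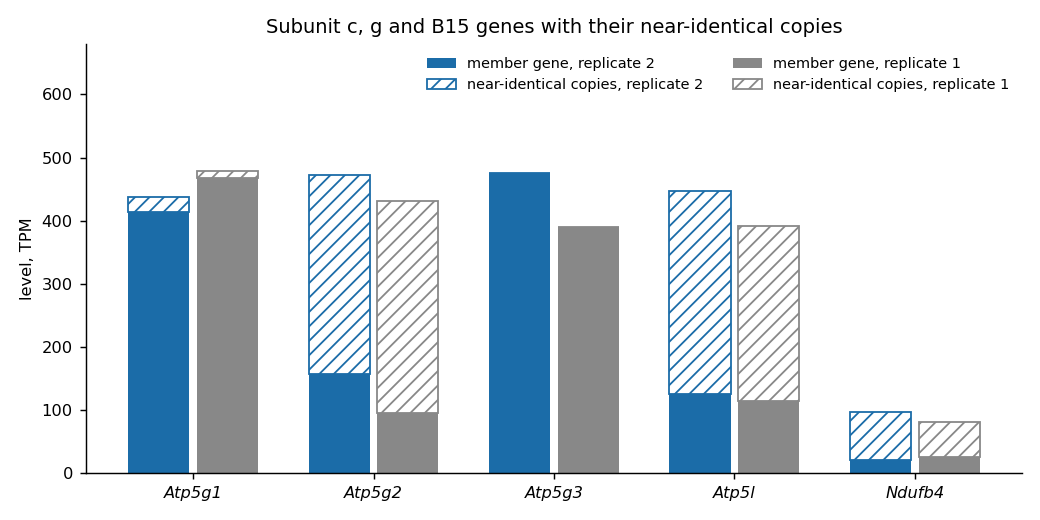
TPM of 3 subunit c genes, of Atp5l (subunit g) and of Ndufb4 (subunit B15), in replicate 2 (blue) and replicate 1 (grey), with the TPM of their near-identical copies stacked on top as hatched bars. With the copies, Atp5g2 reached 472 TPM in replicate 2, against 432 TPM in replicate 1, close to Atp5g1 and Atp5g3.

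Annotated transcripts were examined for the 55 members at or over 10 TPM in both libraries that had several. Both libraries had the same most abundant transcript for 47 of 55, where they did for 76.2% of 4159 protein-coding nuclear genes. The median share of TPM in protein-coding transcripts over the 76 members at 10 TPM in both libraries was 98.8% in replicate 2, against 98.1% in replicate 1, against 92.0% and 91.5% over all 5308 such genes, but 21 of the 76 have a single transcript. Among the 55 with several the median was 81.1% in replicate 2 and 94.1% in replicate 1, against 82.1% and 80.6% over all genes with several. Of the summed TPM of the 76 members, 76.6% lay in coding transcripts in replicate 2 and 77.0% in replicate 1, against 82.8% and 82.3% over all genes. For 9 members (11.8%), under 50% of TPM lay in protein-coding transcripts in both libraries, near the 11.98% of all such genes. They included Atp5b, Atp5f1, Atp5j, Cox5b, Cox7b, Ndufa5, Ndufa10 and Ndufc1, named after their values were seen. Among the 6 highest members with several transcripts, Atp5b was led by Atp5b-206, a transcript annotated as noncoding, with 60.8% of the gene's TPM in replicate 2, against 58.3% in replicate 1, while its coding transcript held 20.5% and 26.3%. Cox4i1-201 led Cox4i1 with 65.2% and 57.9% in replicates 2 and 1, and Uqcrh-202 led Uqcrh with 49.3% and 67.5%. Atp5g1-202 held 97.3% and 99.5% of Atp5g1, Atp5g3-201 78.8% and 75.6% of Atp5g3, and Atp5h-201 45.6% and 41.9% of Atp5h, all of them coding.

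The leading transcript differed between libraries for 8 members, which were Ndufb8, Cox6b2, Uqcrq, Uqcrc2, Ndufb5, Ndufv1, Ndufv2 and Ndufs1. The change of share was widest for Cox6b2. Its coding transcript Cox6b2-201 held 0.37% of the gene's TPM in replicate 2, against 54.1% in replicate 1. Cox6b2-207, annotated as a target of nonsense-mediated decay, held 39.4% in replicate 2, against 1.53% in replicate 1. Coding transcripts together took 38.1% in replicate 2, against 92.8% in replicate 1, or 67.7 and 107 TPM. On coding transcripts alone, Cox6b2 made up 14.5% of the pair with Cox6b1 in replicate 2, against 26.7% in replicate 1, so Cox6b2 was higher in replicate 2 over all its transcripts and lower in replicate 2 over its coding transcripts. In Ndufb5 both leading transcripts were coding: Ndufb5-203 held 76.0% in replicate 2, against 37.2% in replicate 1, and Ndufb5-204 held 18.6% and 54.2%. Ndufv2 also passed between coding transcripts, with Ndufv2-201 at 57.9% and 45.4% and Ndufv2-203 at 38.9% and 50.9%. In Ndufb8, Ndufv1 and Ndufs1 a coding transcript led in replicate 2 and a retained-intron transcript in replicate 1. The coding Ndufb8-201 held 48.8% and 28.8% in replicates 2 and 1, and the retained-intron Ndufb8-202 held 48.4% and 56.1%. For Ndufv1 these were Ndufv1-207 at 46.9% and 38.0% and Ndufv1-209 at 31.7% and 48.3%, and for Ndufs1 they were Ndufs1-201 at 41.4% and 27.2% and Ndufs1-210 at 33.2% and 36.2%. Uqcrq was led by Uqcrq-203, a coding transcript, at 61.8% in replicate 2, and by the noncoding Uqcrq-204 at 44.6% in replicate 1. Uqcrc2 was led by its coding transcript Uqcrc2-201 at 51.0% in replicate 2, and in replicate 1 by a transcript that M21 does not list, at 44.1%. Transcript shares are estimates from short reads and carry more error than gene levels.

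**Figure D4:**
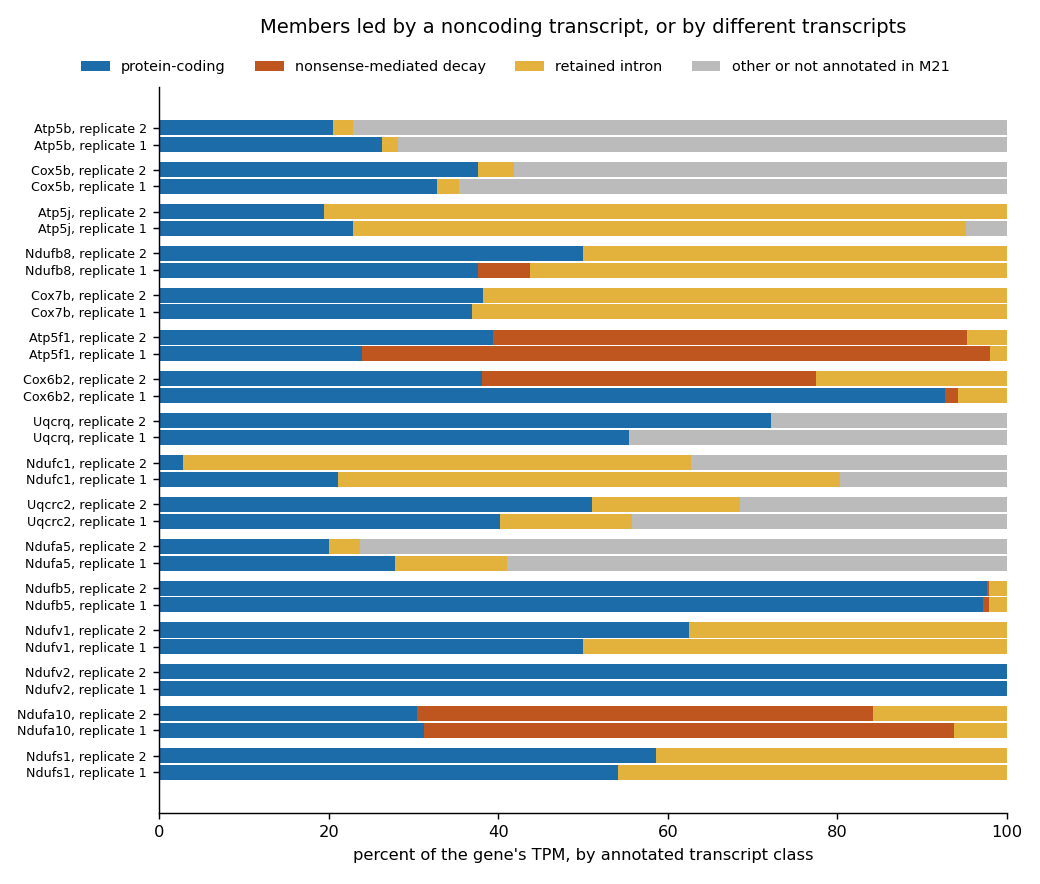
Percent of each gene's TPM by annotated transcript class, replicate 2 above replicate 1, for 16 members, of which 8 were led by a noncoding transcript in both libraries and 8 by different transcripts in the 2 libraries, in order of mean TPM. Coding transcripts of Cox6b2 held 38.1% in replicate 2, against 92.8% in replicate 1.

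Between the libraries, most members, like most genes, lay slightly to the side of replicate 2, and members varied less than all genes by SD. Differences are of log2(TPM + 1), which understates those of low genes, over the 78 members and 9982 protein-coding nuclear genes at a mean of 1 TPM or more. The median difference was 0.33 for members, with 68 of 78 above 0, and 0.18 for all those genes, with 6715 of 9982 above 0. The SD was 0.32 for members and 0.58 for all genes. Of the members, 54 of 78 lay above the median of all genes. Past a difference of 1, a fold of 2, lay 1 member on the side of replicate 2, where 5.13% of genes did, and 0 members on the side of replicate 1, where 2.45% of genes did. Among genes at a mean of 50 TPM or more the SD was 0.25 over 71 members and 0.54 over 1332 genes, while the middle 50% ran from 0.13 to 0.44 for members and from 0.05 to 0.42 for those genes, a much smaller gap than that of the SD. The median of those genes was 0.24, as was that of 939 genes under 800 effective bases, against 0.33 for members at 50 TPM and 0.34 for the 57 members under 800 effective bases. The member past the threshold was Cox7a1, with 25 counts and 3.24 TPM in replicate 2 and 0 counts in replicate 1, at least 5.42 times the floor of 3 counts in replicate 1. Cox6a2, also of heart and skeletal muscle, had 26 counts and 1.37 TPM in replicate 2 and 0 counts in replicate 1, but its mean was under 1 TPM. Both rest on few counts.

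By complex, the median difference was 0.46 for complex III, 0.34 for complex II, 0.33 for complex I, 0.31 for complex IV and 0.20 for complex V. Apart from Cox7a1, members ran from -0.31 for Ndufb4, whose copy Ndufb4c was higher in replicate 2, to 0.80 for Ndufs7, an iron-sulfur subunit next to the ubiquinone site; both were named after their values were seen. Ndufs7 had 142 TPM in replicate 2, against 81.3 TPM in replicate 1. Cox6b2 had a difference of 0.62 in the TPM of all its transcripts. The effective lengths that enter TPM were shorter in replicate 2 for 66 of 78 members, with a median change of 5.36%. Over all those genes they were shorter for 6907 of 9982, with a median change of 1.24%. Under 800 effective bases it was 737 of 939 genes with 4.94%, and 50 of 57 members with 6.90%. Most of the gap from all genes thus went with short length. In CPM scaled with TMM factors, which use no length, the median was 0.06 for members and 0.01 for all genes. On TPM rescaled to protein-coding nuclear genes it was 0.16 for members and 0.01 for all genes. The size of the members' difference from other genes thus depended on the scale, between 0.05 and 0.17 under the scalings and pseudocounts tried with the filter on low values, and on which genes stood beside them. Its cause was not tested.

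**Figure D5:**
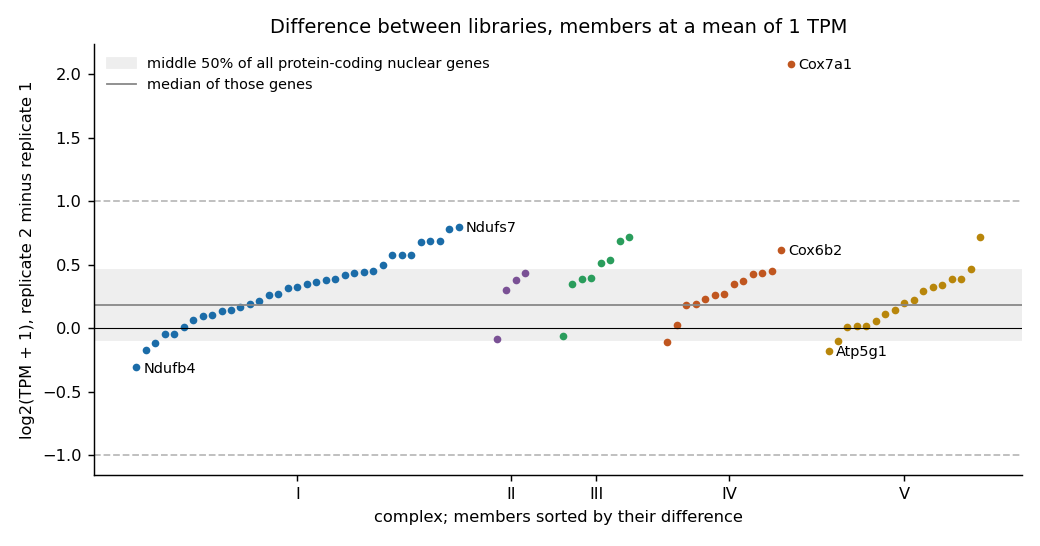
Difference of log2(TPM + 1), replicate 2 minus replicate 1, for the 78 members at a mean of 1 TPM or more, sorted within complexes I to V, with the median and the middle 50% of protein-coding nuclear genes in grey and dashed lines at 1 and -1. All members but Cox7a1 lay between the dashed lines.

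Other genes of the pathway were measured in lists. Among 12 respiratory genes outside the symbol rule, 9 reached 10 TPM in both libraries. Over all protein-coding nuclear genes 24.7% did, the share to set beside such counts for each of these lists. Past a difference of 1 on the side of replicate 2 lay 1 of the 12, where 5.13% of all genes did. It was Dhodh, named after its values were seen, with 23.6 TPM in replicate 2, against 5.95 TPM in replicate 1. Atpif1, the inhibitor of reverse ATP synthase action, had 811 TPM in replicate 2, against 612 TPM in replicate 1, above every member but Atp5b. Usmg5, a small membrane subunit of ATP synthase, had 369 and 328 TPM in replicates 2 and 1, and Ndufab1, the acyl carrier protein that is also a subunit of complex I, had 172 and 139.8 TPM. Of the 13 mitochondrially encoded subunits, 12 reached 10 TPM, with a median of 586 TPM in replicate 2, against 713 TPM in replicate 1 and with mt-Nd4l listed at 0. Highest were mt-Atp8 (2774 and 1660.5 TPM in replicates 2 and 1), mt-Co1 (2083 and 1887 TPM) and mt-Atp6 (1951 and 2035 TPM). The sum over the nuclear members exceeded the sum over these 13 genes by 1.29 times in replicate 2, against 1.23 times in replicate 1.

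Assembly factors, which build the complexes and do not stay in them, had medians under those of the subunits, though single factors overlapped them: Cox17, below, exceeded Cox7a2l in both libraries. For complex I, 10 of 16 reached 10 TPM in both libraries, with a median of 13.0 TPM in replicate 2, against 12.5 TPM in replicate 1. For complex II it was 2 of 4, with medians of 9.67 and 9.23 TPM, for complex III 4 of 6, with 16.9 and 12.8 TPM, for complex IV 15 of 23, with 17.4 and 13.6 TPM, and for complex V 4 of 5, with 25.1 and 16.3 TPM. Highest for complex I were Dmac1 (49.7 and 41.8 TPM in replicates 2 and 1), Ndufaf2 (43.5 and 23.9 TPM) and Ndufaf8 (34.8 and 15.2 TPM). For complex II they were Sdhaf2 (18.4 and 14.7 TPM), Sdhaf4 (15.02 and 17.8 TPM) and Sdhaf1 (4.32 and 3.04 TPM). For complex III they were Uqcc2 (84.7 and 82.0 TPM), Uqcc3 (21.7 and 22.1 TPM) and Uqcc1 (19.9 and 13.9 TPM). For complex IV the copper chaperone Cox17 had 173 TPM in replicate 2, against 94.5 TPM in replicate 1, Cox20 had 144 and 84.8 TPM and Coa5 48.9 and 40.0 TPM, while Pet117 was listed at 0. For complex V the highest were Fmc1 (53.0 and 72.3 TPM), Tmem70 (25.2 and 24.8 TPM) and Atpaf2 (25.1 and 16.2 TPM). Past a difference of 1 on the side of replicate 2 lay 1 factor of complex I, Ndufaf8, and 2 of complex IV, Coa7 and Sco1, and none of these lists had one on the side of replicate 1. With 5.13% of all genes past 1 on the side of replicate 2, such counts are near the background.

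Of 16 regulators of mitochondrial gene expression, 13 reached 10 TPM in both libraries, where 24.7% of protein-coding nuclear genes did. Those that did not were Ppargc1a, Ppargc1b and Esrra, the last 2 named after their values were seen. None of the 15 at a mean of 1 TPM was past a difference of 1 on either side, where 7.58% of genes were, so this is near the background. Tfam, also named after its values were seen, lay just under 1, at 0.99, with 38.15 TPM in replicate 2, against 18.7 TPM in replicate 1. Chchd2 was highest with 219 TPM in replicate 2, against 203 TPM in replicate 1, followed by Myc with 196 and 156 TPM and by the coactivator Hcfc1 with 79.5 and 66.0 TPM. Ppargc1a, the coactivator PGC-1 alpha, had 0 TPM in both libraries. Genes for the factors whose motif letters are counted above were measured too, with Nrf1 at 35.4 and 32.0 TPM, Gabpa at 21.6 and 17.8 TPM and Yy1 at 31.0 and 32.0 TPM in replicates 2 and 1.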

How the data were processed

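RNA above 200 bases was sequenced from 2 libraries of 100 MEP cells, with spike-ins, per the labels. The authors quantified genes and transcripts against mm10 and GENCODE M4, per the README deposited with the tables; aligner and quantifier versions, and whether counting used strand, are not stated there or in the labels. The deposited expected counts are estimates and need not be whole; they were rounded for ratios and scaling factors. In the deposited TPM, the authors corrected for effective length. The share of each transcript within its gene, in percent, is the authors' deposited value too. Symbols, biotypes and positions came from GENCODE M21 by gene identifier without version; 42462 of 43346 gene identifiers matched, and 1 of 85 identifiers that the rule takes in M21 was not used here. Members and lists were chosen with earlier results of these data known. Values of 1 member are not reported here by name.

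Differences used log2(TPM + 1) and genes at a mean of 1 TPM or more, called past 1. Libraries were no duplicates (chi-square per degree of freedom 83.1 over 13354 genes). Near-identical copies had 95% identity or more over at least 100 bases in blastn 2.17.0 and covered at least 50% of the copy. Promoter windows were RefSeq's. Named with values were the 3 highest and 3 lowest members of each complex, isoform pairs, members under 10 TPM in either library or past a difference of 1, leading transcripts of the 6 highest members and of those that differed, and, of pathway lists, the 3 highest and those under 1 TPM in both; core subunits, other subunits and motif factors were named for their role. Alternatives used other minimums, a pseudocount of 0.1, posterior mean TPM, TMM factors (edgeR 4.0.16), size factors (DESeq2 1.42.0, R 4.3.3), coding transcripts alone and added copies. The remaining steps ran in Python 3.11.15 with pandas 2.3.3, numpy 2.4.6, matplotlib 3.10.9 and scipy 1.17.1.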

Additional observations from a re-analysis of the deposited data

Results flagged for a closer look

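Signal in features outside the 84 members was above the limit that a count of 0 allows, which is 3 counts per library, for 3 near-identical processed pseudogenes that held over 20% of the combined counts of copy and member. Gm10175, identical to Atp5g2 over the aligned bases, had 5148 expected counts in replicate 2, against 3356 in replicate 1. Gm10221, identical to Atp5l, had 3179 in replicate 2, against 1743 in replicate 1. Ndufb4c, identical to Ndufb4, had 661 in replicate 2, against 315 in replicate 1.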

How the results depend on the processing

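Of 147 values recomputed under alternatives, 111 stayed within the spread between the libraries (or within 1.5 times for counts, 0.1 for median log2 differences, the exact interval for motif shares) and 36 moved. None of the median log2 differences changed sign, and the other values, which cannot be negative, could not. Some of the 111 stayed by construction, such as shares from a single library and added copies for genes with no copy. The count of 111 is therefore no measure of stability. Rescaling TPM to protein-coding nuclear genes raised every median by construction, to 289 TPM for all members and to 218, 184, 345, 435 and 558 TPM for complexes I to V, and put the median log2 difference at 0.16 with 2 members past 1, Cox6a2 and Cox7a1, where 11.2% of all genes were past 1. Restricting complex IV to members at a mean of 10 TPM gave 337 TPM. At a minimum of 100 TPM, 46 members were detected. With no filter on mean TPM, the members' median difference exceeded that of all genes by 0.31 with 2 members past 1 (4.31% of genes). With TMM factors the median difference was 0.062 with 0 members past 1 (6.08% of genes), and with DESeq2 size factors 0.0702 with 2 (21.4% of genes). For the size factors, the pseudocount and the minimum mean of 1 were in scaled counts, not in TPM. That setting took in 12331 genes, against 9982 in the main setting, with an SD of 1.62, against 0.58. Its 21.4% is thus not on the same footing as the other shares. The cause of the smaller median differences was not tested. Counts with no length correction gave Atp5g3 46.5% of subunit c. Leaving out members with a near-identical copy gave a share of 2.29%. Alternatives chosen after seeing the data were coding transcripts alone and added copies. Coding transcripts alone gave 90.85 TPM for all members, 73.0, 72.3, 109.5 and 202 TPM for complexes I, II, IV and V, 3 members past 1 (7.78% of genes), of which Cox7a1 and Ndufs7 were higher in replicate 2 and Ndufc1 was lower there, at 4.29 TPM against 23.8 TPM in replicate 1, and 20.6% for Cox6b2 in its pair; complex III then stood above complex IV at 143 TPM. Added copies gave 34.2%, 33.7% and 32.2% for Atp5g1, Atp5g2 and Atp5g3, and a member share of 3.44%. Each library alone gave complex I 81.3 to 96.97 TPM; with 2 libraries, each lies about as far from the mean as the spread itself, so this says nothing on stability. No paired analysis was possible because both libraries belong to 1 group. Depth limits the genes at 0 to under the floor of 3 counts per library.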
